A study of Mus musculus with 12 samples.

Results

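The genes described here are 9 markers of the subtypes of spiral ganglion neurons, the primary auditory neurons that carry signals from the cochlea to the brainstem. They were taken by gene name as known subtype markers, with no threshold on their values. Calb2, Rxrg and Pcdh20 mark type Ia neurons, Calb1 marks type Ib, Lypd1, Pou4f1 and Runx1 mark type Ic, and Prph and Th mark type II. These 9 were taken from 55348 genes in each library, and all 9 passed the filter on low counts, among 19052 genes tested.

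RNA was sequenced from organs of Corti of mice at postnatal day 21, with 3 libraries for each of 4 genotypes and 12 in all. The genotypes were wild-type, Clrn1-/-, Clrn2-/- and the double mutant Clrn1-/-Clrn2-/-. Clrn1-/- mice lack an exon of Clrn1 after germline recombination with a PGK-cre transgene, Clrn2-/- mice carry a nonsense mutation in Clrn2, and the double mutants came from crosses of these lines. Both alleles are constitutive and were carried by every cell type, so no result here can be assigned to neurons or to hair cells. Wild-type mice were bred separately from the mutants, so breeding line and genotype cannot be told apart. Nothing in the labels says how many mice went into a library, so the p-values measure the spread between libraries.

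Type I spiral ganglion neurons are the large majority of the ganglion, and each sends a single myelinated fibre to an inner hair cell. They are divided into Ia, Ib and Ic by gene expression, and the subtypes differ in where they contact the inner hair cell and in their thresholds and spontaneous firing rates. Type II neurons are few and unmyelinated, and they run among the outer hair cells. The cell bodies lie in the modiolus, which the submitters removed at dissection, so the organ of Corti is a place where these neurons have their endings and distal fibres. Several markers are known outside the neurons too. Calb2 and Calb1 encode calcium-binding proteins (calretinin and calbindin) that cochlear hair cells also make, Runx1 is a regulator of blood cell formation, and Prph and Th are also made by autonomic neurons.

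The libraries held 30008679 to 41049302 counts on genes. The level of Clrn1 was 25.8 ± 2.46 CPM (mean ± SD, n = 3; the count of a gene scaled to the TMM-adjusted library size) in wild-type and 28.8 ± 2.83 CPM in Clrn2-/-, against 2.83 ± 0.18 CPM in Clrn1-/- and 2.30 ± 0.48 CPM in double mutants, as labelled. Clrn2 was at 2.72 ± 0.73 CPM in wild-type and between 0.85 and 1.38 CPM in the 9 mutant libraries, including those labelled Clrn1-/-, so its level did not separate the mutant genotypes. General neuron genes were abundant despite the dissection. The 20 genes of a neuron list summed to 15163 to 16608 CPM in wild-type, 13973 to 14565 CPM in Clrn1-/-, 13231 to 15226 CPM in Clrn2-/- and 10703 to 10894 CPM in double mutants. In these bulk libraries, fewer neurons (or fewer fibres) and less RNA per neuron cannot be told apart.

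Promoters are shown for the type II markers and Rxrg, which had the largest changes against wild-type among the markers with a promoter on file, and for Runx1, the type Ic marker with the smallest adjusted p in Clrn1-/-. RefSeq promoters on GRCm38.p6, from 250 bases before the transcription start to 50 bases after it, were found for 7 of the 9 markers. Short motifs of known factors were searched on both strands, and capitals mark a match. TATAAA is the TATA box of core promoters, and TGACGTCA is the cyclic AMP response element. The letters AGGTCA are bound by nuclear receptors, the family of Rxrg. RUNX factors bind TGTGGT, and POU4 factors bind sites with ATTAAT, which no marker's promoter held (4.75% of all promoters did).
Prph, chr15:99054924-99055223, plus strand: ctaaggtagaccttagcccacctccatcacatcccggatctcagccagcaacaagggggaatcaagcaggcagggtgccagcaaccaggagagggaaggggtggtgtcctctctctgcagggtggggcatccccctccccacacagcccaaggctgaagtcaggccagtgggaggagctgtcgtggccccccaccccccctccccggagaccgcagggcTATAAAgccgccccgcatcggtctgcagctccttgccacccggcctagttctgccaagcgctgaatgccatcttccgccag
Th, chr7:142899946-142900245, minus strand: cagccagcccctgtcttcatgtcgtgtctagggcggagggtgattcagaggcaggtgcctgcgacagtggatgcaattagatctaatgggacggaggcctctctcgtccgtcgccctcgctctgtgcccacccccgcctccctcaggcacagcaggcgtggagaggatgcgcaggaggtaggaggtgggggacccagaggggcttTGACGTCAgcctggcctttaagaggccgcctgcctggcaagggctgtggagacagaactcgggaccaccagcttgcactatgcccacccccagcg
Rxrg, first start, chr1:167598112-167598411, plus strand: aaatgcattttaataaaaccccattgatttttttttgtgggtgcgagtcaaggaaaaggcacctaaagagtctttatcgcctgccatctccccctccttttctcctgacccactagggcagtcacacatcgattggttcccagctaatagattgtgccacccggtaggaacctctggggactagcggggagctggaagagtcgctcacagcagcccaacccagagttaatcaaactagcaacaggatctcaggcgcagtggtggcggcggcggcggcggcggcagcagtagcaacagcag
Rxrg, second start, chr1:167618015-167618314, plus strand: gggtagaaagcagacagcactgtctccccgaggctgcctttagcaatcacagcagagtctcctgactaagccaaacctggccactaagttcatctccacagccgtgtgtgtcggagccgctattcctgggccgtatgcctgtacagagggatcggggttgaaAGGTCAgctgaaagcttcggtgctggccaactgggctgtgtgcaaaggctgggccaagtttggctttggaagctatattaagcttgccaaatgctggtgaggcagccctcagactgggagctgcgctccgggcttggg
Runx1, first start, chr16:92826025-92826324, minus strand: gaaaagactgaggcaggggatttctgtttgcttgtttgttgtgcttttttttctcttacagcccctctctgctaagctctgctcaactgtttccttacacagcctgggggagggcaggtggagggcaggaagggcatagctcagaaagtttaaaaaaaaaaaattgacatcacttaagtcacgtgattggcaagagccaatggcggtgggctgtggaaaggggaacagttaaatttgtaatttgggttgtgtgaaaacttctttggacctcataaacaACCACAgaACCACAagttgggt
Runx1, second start, chr16:92697280-92697579, minus strand: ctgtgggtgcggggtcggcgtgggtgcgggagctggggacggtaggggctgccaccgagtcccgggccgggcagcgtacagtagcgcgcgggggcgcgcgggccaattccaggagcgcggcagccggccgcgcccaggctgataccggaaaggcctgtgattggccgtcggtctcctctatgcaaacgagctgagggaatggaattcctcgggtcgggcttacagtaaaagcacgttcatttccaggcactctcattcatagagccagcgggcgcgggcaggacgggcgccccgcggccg

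The Prph promoter held TATAAA from 31 to 26 bases before the start, a motif found in 13.6% of 32851 RefSeq promoters of the same length. The Th promoter held TGACGTCA from 45 to 38 bases before the start, a motif found in 1.79% of promoters. The type II markers thus shared none of the motifs searched. The RefSeq start of Th used here lies 31133 bases inside the gene as Gencode draws it. Of the pair of Rxrg promoters, the upstream one held none of the motifs, and the second held AGGTCA from 88 bases before its start (16.3% of promoters). Of the pair of Runx1 promoters, the first held TGTGGT on the opposite strand, at 28 and at 36 bases after the start, which is how ACCACA appears in capitals (16.8% of promoters), and the second held none of the motifs. Among the promoters not printed, 1 of the 3 of Lypd1 held TGTGGT, and those of Pcdh20 and Pou4f1 held none. A match is only a description of the letters and does not show that a factor binds there.

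In wild-type the markers spanned a wide range of level per transcript length (RPKM, CPM divided by the exon length in kilobases). Calb2 led with 1609 ± 128 RPKM (mean ± SD, n = 3), above 99.9% of the tested genes of known length. Lypd1, which encodes a GPI-anchored protein of the Ly6 family, was next at 114 ± 12.05 RPKM. The other 7 markers lay between 2.35 and 9.68 RPKM, an order in which neighbours were often alike. Calb1 (9.68 ± 3.97 RPKM), Pou4f1 (8.62 ± 0.46 RPKM) and Rxrg (8.13 ± 1.12 RPKM) overlapped from one to the next. Pcdh20 followed at 5.18 ± 0.38 RPKM without overlap on either side. Th (4.08 ± 0.49 RPKM) and Runx1 (3.86 ± 0.09 RPKM) overlapped each other, and Prph was lowest at 2.35 ± 0.79 RPKM. The order of markers is not an order of neuron numbers, since Calb2 and Calb1 are also products of hair cells.

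**Figure D1:**
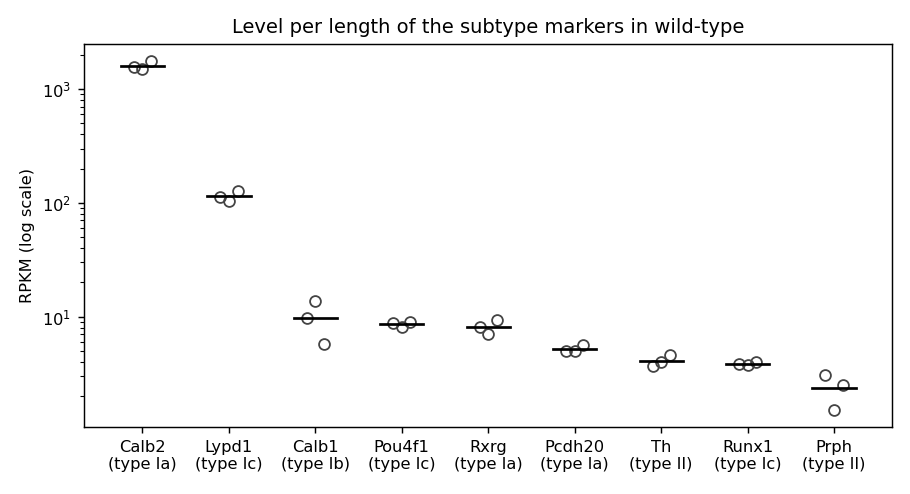
Level of the 9 subtype markers in wild-type organ of Corti, in RPKM on a log axis, with an open point for each of the 3 libraries and a bar at their mean. Calb2 and Lypd1 stand above the other 7 markers, and Prph is lowest.

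The loss of each clarin, and of both, was compared with wild-type, and a gene was called where its adjusted p reached 0.05 or less (edgeR quasi-likelihood test, Benjamini-Hochberg over all 19052 genes) with a change of at least 1.5-fold. In Clrn1-/- mice 1 of the 9 markers was called, Rxrg, which fell, where 7.22% of all tested genes were called (3.52% higher and 3.70% lower). In Clrn2-/- mice 1 of 9 was called, Prph, which rose, against 2.66% of all genes (1.24% higher and 1.42% lower). In Clrn1-/-Clrn2-/- mice 3 of 9 were called, with Calb2 and Rxrg lower and Prph higher, against 9.90% of all genes (5.88% higher and 4.02% lower).

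Without the minimum of 1.5-fold, the adjusted p passed for 3 markers in Clrn1-/-, 5 in Clrn2-/- and 6 in double mutants, where 26.9%, 14.2% and 37.0% of all genes passed. The libraries of mutant and wild-type did not overlap for 3, 6 and 5 of the 9 markers, against 40.2%, 29.0% and 48.2% of all genes. The median log2 fold change of the 9 markers was -0.01 in Clrn1-/-, -0.11 in Clrn2-/- and -0.11 in double mutants, beside 0.00 over all genes in each comparison. The markers thus had no common direction, and they are described by subtype.

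**Figure D2:**
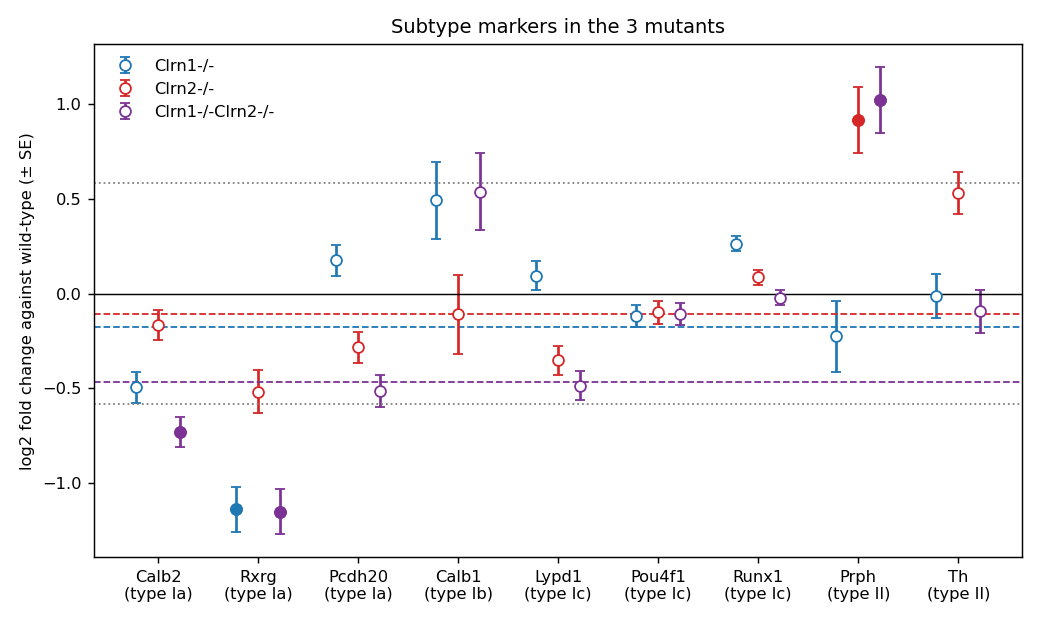
Log2 fold change of each marker against wild-type in Clrn1-/- (blue), Clrn2-/- (red) and double mutants (purple), with bars for the standard error. Filled points were called, dotted lines mark 1.5-fold and dashed lines mark the median of 20 neuron genes in each mutant. Rxrg lies lowest in Clrn1-/- and double mutants, and Prph lies highest in Clrn2-/- and double mutants.

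The markers called lower than wild-type, Rxrg and Calb2, were both of type Ia. Rxrg encodes retinoid X receptor gamma, a nuclear receptor that pairs with other receptors, and lies on chromosome 1 (167598384 to 167639623, plus strand, GRCm38, 11 exons). Its level was 18.4, 16.2 and 21.4 CPM in the wild-type libraries, 9.90, 8.15 and 7.53 CPM in Clrn1-/-, 14.3, 12.7 and 12.2 CPM in Clrn2-/-, and 7.31, 9.15 and 8.76 CPM in double mutants. All 9 mutant libraries lay below all 3 wild-type libraries, and those of Clrn1-/- and double mutants lay below those of Clrn2-/- as well. Rxrg fell by 1.14 ± 0.12 on the log2 scale in Clrn1-/- (SE, adjusted p = 4.9e-06) and by 1.15 ± 0.12 in double mutants (adjusted p = 1.67e-06), to 0.454 and 0.451 of the wild-type level. In Clrn2-/- it was lower by a log2 change of -0.52 ± 0.11 (adjusted p = 0.00631), short of 1.5-fold.

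Calb2 encodes calretinin and lies on chromosome 8 (110137502 to 110168210, minus strand, 12 exons). Wild-type libraries held 2706, 2648 and 3061 CPM of it, Clrn1-/- libraries 1953, 1957 and 2062 CPM, Clrn2-/- libraries 2847, 2317 and 2332 CPM, and double mutant libraries 1576, 1755 and 1741 CPM. The double mutants were lowest, the Clrn1-/- libraries were above them without overlap, and 1 Clrn2-/- library reached into the wild-type range. Calb2 fell by 0.73 ± 0.08 on the log2 scale in double mutants (adjusted p = 3.33e-06), a level 0.603 of wild-type. In Clrn1-/- the log2 change was -0.49 ± 0.08 (adjusted p = 3e-04), under the fold minimum, and in Clrn2-/- it was -0.17 ± 0.08 (adjusted p = 0.192). Beside this, 16 hair cell genes summed to 1135 to 1307 CPM in wild-type, 1071 to 1198 CPM in Clrn1-/-, 1192 to 1332 CPM in Clrn2-/- and 1129 to 1185 CPM in double mutants. That sum includes Pvalb (564 ± 43.5 CPM in wild-type and 394 ± 14.1 CPM in double mutants), which encodes parvalbumin and is also in the list of other ganglion genes. Without Pvalb, a choice made after seeing the data, the other 15 genes summed to 606 to 694 CPM in wild-type, 626 to 698 CPM in Clrn1-/-, 666 to 822 CPM in Clrn2-/- and 751 to 786 CPM in double mutants, where every library was above wild-type. Log2 changes of these 15 had medians of 0.04, 0.23 and 0.17 in the 3 mutants, with 1, 5 and 4 called higher and 3, 0 and 1 lower. Otof (otoferlin, needed for release at inner hair cell synapses) was at 99.4 ± 11.1 CPM in wild-type, 82.7 ± 6.94 CPM in Clrn1-/- and 108 ± 4.73 CPM in double mutants. Slc26a5 (prestin, the motor of outer hair cells) was at 17.2 ± 0.63, 18.7 ± 1.69 and 25.2 ± 0.90 CPM. Gfi1 fell from 7.17 ± 1.48 to 4.46 ± 0.58 CPM and Chrna10 from 16.2 ± 0.80 to 11.7 ± 0.28 CPM in double mutants. Slc17a8 fell from 29.3 ± 2.97 to 15.8 ± 1.09 CPM in Clrn1-/-. Of all 16 genes, 11 had a positive and 5 a negative log2 change in double mutants, and 8 and 8 in Clrn1-/-. The part of hair cells in the Calb2 level was not tested.

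Pcdh20 encodes a protocadherin, a cell adhesion protein, and lies on chromosome 14 (88464743 to 88471396, minus strand, 3 exons). It was at 27.2, 27.2 and 30.9 CPM in wild-type, 36.5, 31.1 and 28.8 CPM in Clrn1-/-, 24.1, 23.9 and 22.1 CPM in Clrn2-/- and 19.6, 18.7 and 21.3 CPM in double mutants. Clrn2-/- and double mutant libraries lay below wild-type, whereas those of Clrn1-/- overlapped it. The log2 fold change was 0.17 ± 0.08 in Clrn1-/- (adjusted p = 0.132), -0.28 ± 0.08 in Clrn2-/- (adjusted p = 0.0328) and -0.52 ± 0.08 in double mutants (adjusted p = 0.000159), with none past 1.5-fold. Thus the 3 type Ia markers had different profiles, with Rxrg and Calb2 lower in Clrn1-/- and Pcdh20 not.

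**Figure D3:**
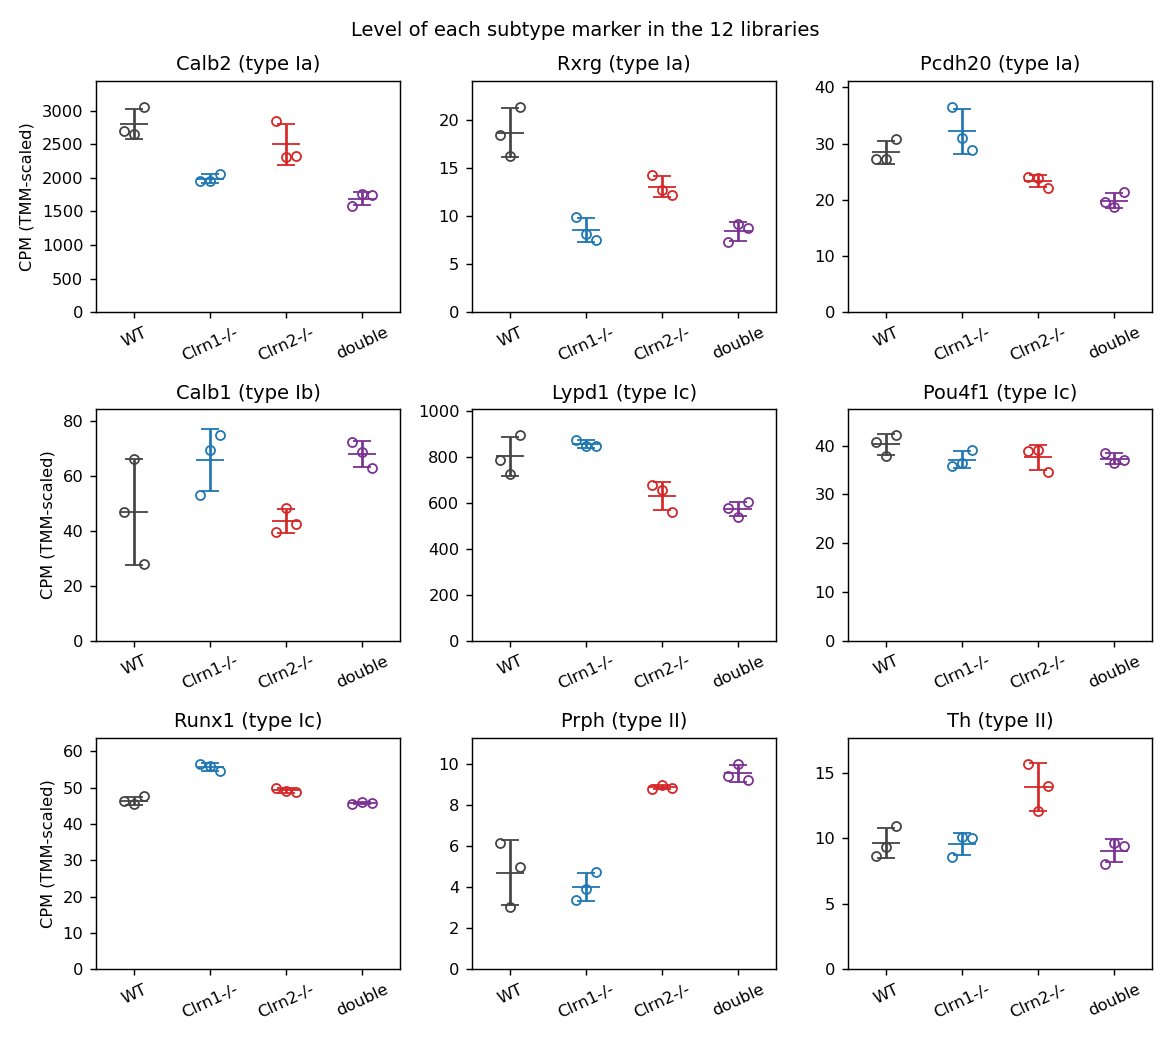
Level in CPM of each of the 9 markers in the 12 libraries, by genotype, with open points for libraries and bars for mean ± SD (n = 3, axes from 0). Rxrg and Calb2 are lowest in Clrn1-/- and double mutants, and Prph in Clrn2-/- and double mutants (8.79 to 10.0 CPM) lies above all wild-type and Clrn1-/- libraries (3.01 to 6.15 CPM).

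Calb1, the type Ib marker, encodes calbindin and lies on chromosome 4 (15881264 to 15908064, plus strand, 10 exons). It was the most variable marker within wild-type, at 46.7, 66.3 and 27.8 CPM, a coefficient of variation of 41.0%. The other genotypes were at 53.0, 69.3 and 74.8 CPM in Clrn1-/-, 39.6, 48.2 and 42.6 CPM in Clrn2-/-, and 72.4, 68.6 and 63.0 CPM in double mutants. Wild-type libraries overlapped those of every mutant. The log2 fold change was 0.49 ± 0.20 in Clrn1-/- (adjusted p = 0.0877), -0.11 ± 0.21 in Clrn2-/- (adjusted p = 0.787) and 0.54 ± 0.20 in double mutants (adjusted p = 0.0499), none of them called. Without wild-type replicate 3, the lowest library, the change in double mutants was 0.25, and without wild-type replicate 2, the highest, it was 0.86.

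The level of Calb1 moved with that of Xist, the X-inactivation transcript made only by female cells, which was among the 3 genes most like it of 15402 compared (Pearson r = 0.92 of log2 CPM over 12 libraries, which share genotypes in sets of 3). Xist was at 199, 228 and 114 CPM in the wild-type libraries, the same order as Calb1. Calb1 and Xist also had the same order among the Clrn1-/- and among the Clrn2-/- libraries, but not among the double mutants. All 12 libraries held both Xist (114 to 260 CPM) and Y-linked transcripts (Ddx3y, Eif2s3y, Kdm5d and Uty, together 81.6 to 128 CPM), so each held RNA of both sexes. With Xist added to the fit, an alternative chosen after seeing the data, the log2 change of Calb1 was 0.06 in Clrn1-/-, -0.16 in Clrn2-/- and 0.21 in double mutants. Whether sex composition sets the level of Calb1 was not tested.

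**Figure D4:**
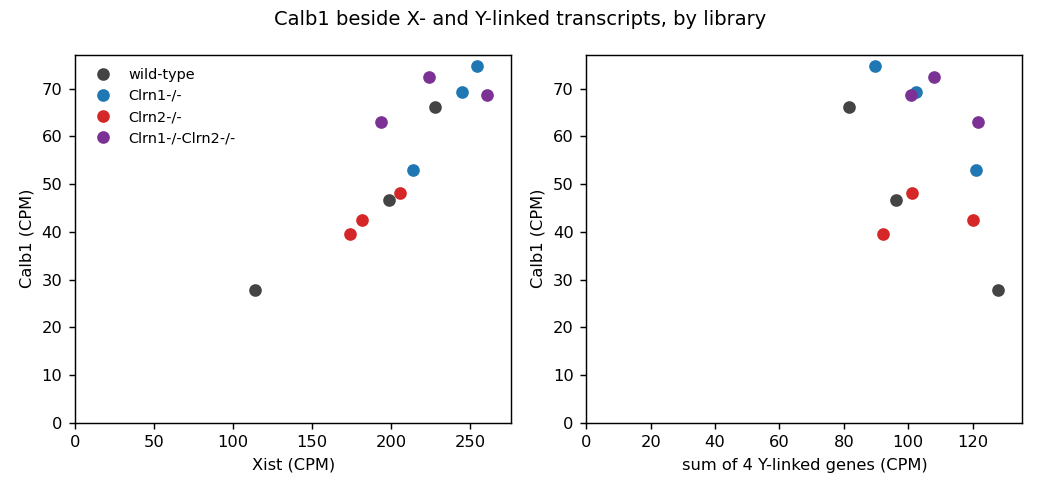
Calb1 in CPM against Xist (left) and against the sum of 4 Y-linked genes (right) in CPM, with a point for each of the 12 libraries coloured by genotype. The wild-type library lowest in Calb1 (27.8 CPM) is also lowest in Xist (114 CPM) and highest in Y-linked transcripts (128 CPM).

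No type Ic marker was called against wild-type. Lypd1 lies on chromosome 1 (125867622 to 125913101, minus strand, 6 exons). Its level was 786, 727 and 894 CPM in wild-type, 874, 848 and 845 CPM in Clrn1-/-, 675, 654 and 558 CPM in Clrn2-/-, and 578, 538 and 602 CPM in double mutants. Clrn2-/- and double mutant libraries lay below wild-type and Clrn1-/- libraries without overlap. The log2 change was 0.09 ± 0.08 in Clrn1-/- (adjusted p = 0.409), -0.35 ± 0.08 in Clrn2-/- (adjusted p = 0.00598) and -0.49 ± 0.08 in double mutants (adjusted p = 0.000116), the last 2 under 1.5-fold. The gene shares 1202 exon bases with Gpr39 on the opposite strand, and unstranded counts of Lypd1 were only 41.9% to 49.7% of the stranded ones. With unstranded counts the changes kept their signs, at 0.12, -0.49 and -0.49.

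Pou4f1 encodes the transcription factor BRN3A, made by sensory neurons, and lies on chromosome 14 (104461676 to 104467999, minus strand, 4 exons). It was at 40.8, 37.9 and 42.1 CPM in wild-type, 35.9, 36.5 and 39.0 CPM in Clrn1-/-, 39.0, 39.1 and 34.7 CPM in Clrn2-/-, and 38.5, 36.4 and 37.0 CPM in double mutants. Every mutant overlapped wild-type, with log2 changes of -0.12 ± 0.06, -0.10 ± 0.06 and -0.11 ± 0.06 and adjusted p of 0.158, 0.291 and 0.159. Of the 9 markers it was the one for which no comparison, between mutants included, passed the adjusted p.

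Runx1 encodes a transcription factor of the runt family and lies on chromosome 16 (92601466 to 92826149, minus strand, 9 exons). The libraries were tightly grouped, at 46.3, 45.4 and 47.6 CPM in wild-type, 56.6, 56.0 and 54.6 CPM in Clrn1-/-, 50.03, 49.2 and 48.7 CPM in Clrn2-/-, and 45.6, 46.0 and 45.7 CPM in double mutants. All Clrn1-/- libraries were above all others, and the double mutants lay within the wild-type range. The change in Clrn1-/- was 0.26 ± 0.04 on the log2 scale (adjusted p = 0.000148), a small difference well beyond the spread of the libraries but under 1.5-fold. It was 0.09 ± 0.04 in Clrn2-/- (adjusted p = 0.172) and -0.02 ± 0.04 in double mutants (adjusted p = 0.718). Runx1 is also known from blood and macrophage lineages, so their markers are given beside it. Macrophage genes (12) summed to 156 to 202 CPM in wild-type, 251 to 268 CPM in Clrn1-/-, 183 to 231 CPM in Clrn2-/- and 254 to 298 CPM in double mutants. Haemoglobin genes and Alas2 (5 genes of red blood cells) summed to 700 to 1138 CPM in wild-type and to 278 to 379, 426 to 642 and 534 to 713 CPM in the same 3 mutants. The part of these cells in the Runx1 level was not tested.

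Both type II markers were above wild-type in all Clrn2-/- libraries, and Prph was called. Prph encodes peripherin, an intermediate filament of peripheral axons, and lies on chromosome 15 (99055174 to 99058978, plus strand, 8 exons), with a TATAAA before its start in the promoter printed above. Prph was at 6.15, 3.01 and 4.96 CPM in wild-type, 3.38, 3.88 and 4.75 CPM in Clrn1-/-, 8.79, 8.96 and 8.85 CPM in Clrn2-/-, and 9.40, 10.0 and 9.20 CPM in double mutants, from 107 to 357 counts per library. The 6 libraries of genotypes with the Clrn2 mutation were all above the other 6, and wild-type was the most variable group (coefficient of variation 33.7%). Prph rose by 0.91 ± 0.17 on the log2 scale in Clrn2-/- (adjusted p = 0.00231; 1.88-fold) and by 1.02 ± 0.17 in double mutants (adjusted p = 0.000238; 2.03-fold). In Clrn1-/- the change was -0.23 ± 0.19 (adjusted p = 0.411). Both calls of Prph held without any 1 of the wild-type libraries, with log2 changes of 0.68 to 1.15 and 0.77 to 1.25.

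Th encodes tyrosine hydroxylase, the first enzyme of catecholamine synthesis, and lies on chromosome 7 (142892752 to 142931128, minus strand, 14 exons). Its level was 8.68, 9.34 and 10.9 CPM in wild-type, 8.60, 10.1 and 9.99 CPM in Clrn1-/-, 15.7, 12.1 and 14.0 CPM in Clrn2-/-, and 8.03, 9.65 and 9.40 CPM in double mutants. The Clrn2-/- libraries stood above all 9 others, which overlapped one another. The log2 change was 0.53 ± 0.11 in Clrn2-/- (adjusted p = 0.00452), just under 1.5-fold, -0.01 ± 0.11 in Clrn1-/- (adjusted p = 0.949) and -0.09 ± 0.11 in double mutants (adjusted p = 0.566). Thus Prph stayed high in double mutants and Th did not, although both mark type II neurons. Sympathetic and efferent fibres also reach the organ of Corti, and 11 of their genes summed to 5.21 to 6.11 CPM in wild-type, 4.39 to 4.63 CPM in Clrn1-/-, 5.11 to 5.75 CPM in Clrn2-/- and 4.61 to 5.67 CPM in double mutants. Of the 11, only 3 passed the filter on low counts, and among these none was called in Clrn2-/- and 1 rose (Npy, a neuropeptide) and 1 fell (Ddc, an enzyme of dopamine synthesis) in double mutants. Of the noradrenergic genes under the filter, Dbh (dopamine beta-hydroxylase) had a mean of 0.0084 CPM in wild-type and 0.009 CPM in Clrn2-/-, Slc6a2 (the noradrenaline transporter) of 0.018 and 0.13 CPM, and Slc18a2 (the vesicular monoamine transporter) of 0.062 and 0.15 CPM. The part of these fibres in the levels of Th and Prph was not tested.

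The mutants were then compared with each other, to ask whether loss of the second clarin added to loss of the first. Against Clrn1-/-, double mutants had 2 of 9 markers called, against 7.23% of all genes (4.62% higher and 2.61% lower). Pcdh20 fell by 0.69 ± 0.08 on the log2 scale (adjusted p = 1.54e-05) and Prph rose by 1.24 ± 0.18 (adjusted p = 6.46e-05). Lypd1 was lower by -0.58 ± 0.08 (adjusted p = 3.37e-05), a fold of 0.669 that lay at the edge of the minimum. It was called under 13 of 22 alternatives, and among these the setting without a fold minimum called it by construction. Rxrg differed by -0.01 ± 0.13 (adjusted p = 0.96), with overlapping libraries. Calb2 was lower by -0.24 ± 0.08 (adjusted p = 0.0365) and Runx1 by -0.28 ± 0.04 (adjusted p = 5.07e-05), both under 1.5-fold. In all, 5 of 9 passed the adjusted p (30.4% of all genes), and 5 did not overlap (46.0%).

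Against Clrn2-/-, double mutants had 3 of 9 markers called, against 5.10% of all genes (3.67% higher and 1.43% lower). Rxrg fell by 0.63 ± 0.12 on the log2 scale (adjusted p = 0.00121), Th fell by 0.62 ± 0.11 (adjusted p = 0.000746) and Calb1 rose by 0.65 ± 0.21 (adjusted p = 0.0284). Calb2 was lower by -0.56 ± 0.08 (adjusted p = 0.000112), just under 1.5-fold, and Prph differed by 0.10 ± 0.17 (adjusted p = 0.691). The adjusted p passed for 4 markers (27.6% of all genes), and 7 did not overlap (42.4%). Without Clrn2-/- replicate 1, or without double mutant replicate 1, none of the 9 was called, with Rxrg at -0.57 and -0.56 and Th at -0.53 and -0.56. With Xist in the fit, again none was called and Calb1 was at 0.37.

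Between the single mutants, 2 of 9 markers were called, against 4.73% of all genes (2.40% higher and 2.34% lower), and both were lower in Clrn1-/-. Rxrg was at 0.650 of the Clrn2-/- level (log2 -0.62 ± 0.12, adjusted p = 0.00217) and Prph at 0.454 (log2 -1.14 ± 0.18, adjusted p = 0.000387). The adjusted p passed for 7 markers (18.5% of all genes), and the libraries did not overlap for 8 of the 9 markers, all but Pou4f1, against 34.6% of all genes. Calb1 was at 0.60 ± 0.21 (adjusted p = 0.0532) without a call. Rxrg lost its call without Clrn1-/- replicate 3 (-0.54) or Clrn2-/- replicate 1 (-0.56), and with Xist in the fit (-0.50).

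Whether the effects of the 2 losses added on the log2 scale was tested as an interaction, the change in double mutants minus the sum of the changes in the single mutants. Th was the 1 of 9 markers called, against 5.50% of all genes (3.58% higher and 1.92% lower), at -0.61 ± 0.16 (adjusted p = 0.0154). It was at -0.52 to -0.56 and not called without wild-type replicate 1, Clrn2-/- replicate 1 or double mutant replicate 1. Runx1 (-0.37 ± 0.06, adjusted p = 0.000327) and Pcdh20 (-0.41 ± 0.12, adjusted p = 0.0266) passed the adjusted p under 1.5-fold, where 17.4% of all genes passed it. Th was highest in Clrn2-/- and Runx1 and Pcdh20 in Clrn1-/-, and each had a mean below that of wild-type in double mutants. Rxrg had an interaction of 0.51 ± 0.17 (adjusted p = 0.051), Calb2 of -0.07 ± 0.11 (adjusted p = 0.74) and Prph of 0.33 ± 0.25 (adjusted p = 0.413).

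The neuron genes as a list give a measure of neuronal RNA in the tissue, and each marker can be read against it. Of the 20 neuron genes, none was called in either single mutant, and 6 fell and 1 rose (Gap43, a protein of growing axons, log2 0.65) in double mutants. Their median log2 fold change was -0.18 in Clrn1-/-, -0.11 in Clrn2-/- and -0.47 in double mutants, and 18 of 20 were negative in double mutants. Among those called, Ina, a neuronal intermediate filament, had the largest change in double mutants (log2 -0.74 ± 0.06, adjusted p = 1.43e-07). Nefh, the heavy neurofilament chain and the most abundant of the 20, was at 2887 ± 114 CPM in wild-type and 1879 ± 38.6 CPM in double mutants (log2 -0.62 ± 0.07, adjusted p = 6.71e-06).

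For each library, the log2 level of a marker over its wild-type mean was set beside the median of the neuron genes in the same library. In double mutants the difference was -0.69 ± 0.17 (SD, n = 3) for Rxrg and -0.27 ± 0.09 for Calb2, so both lay below the median of the neuron genes. Calb2 did not lie below every gene of the list. Ina fell about as far, from 388 ± 13.2 CPM in wild-type to 233 ± 4.20 CPM in double mutants. Pcdh20 (-0.05 ± 0.09) and Lypd1 (-0.02 ± 0.08) lay near the median of the neuron list. Pou4f1 (0.36 ± 0.04), Th (0.37 ± 0.15), Runx1 (0.44 ± 0.01), Calb1 (1.00 ± 0.10) and Prph (1.48 ± 0.07) lay above it. In Clrn1-/- Rxrg was again lowest (-0.98 ± 0.24), and in Clrn2-/- Prph (1.04 ± 0.09) and Th (0.65 ± 0.17) were highest. These differences are descriptions without a test, since the list was chosen with results of these libraries known.

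**Figure D5:**
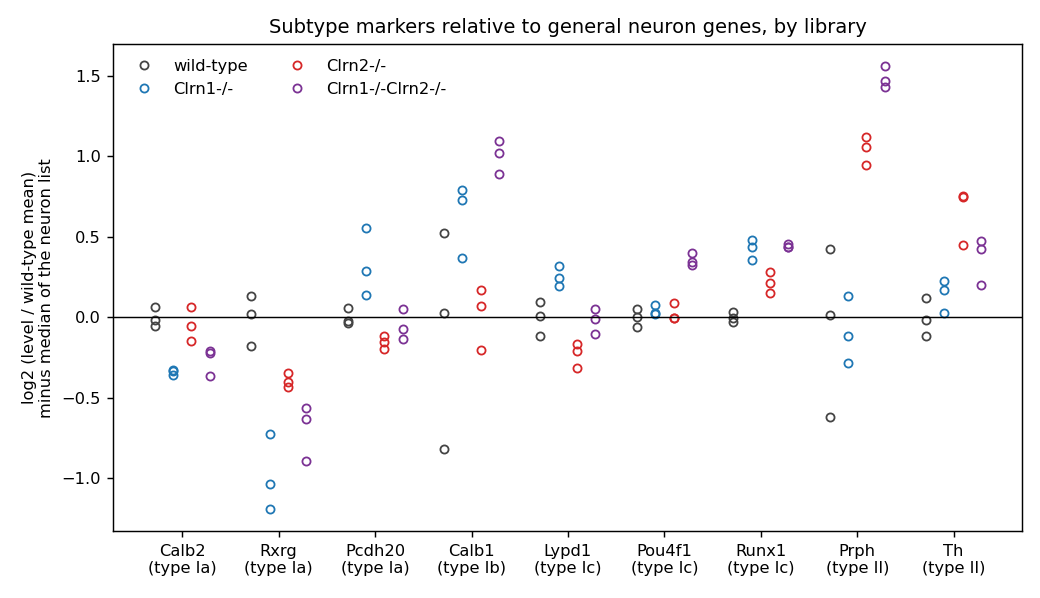
Log2 level of each marker over its wild-type mean, minus the median of 20 neuron genes in the same library, with a point for each of the 12 libraries coloured by genotype. In double mutants (purple) Rxrg and Calb2 lie below 0 and Prph lies highest, at 1.43 to 1.56.

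Among 20 other genes of the ganglion, 3 rose and 3 fell in double mutants, 1 rose in Clrn1-/- and none was called in Clrn2-/-. Slc17a6, the vesicular glutamate transporter VGLUT2, had a log2 change of -0.87 ± 0.05 (adjusted p = 1.28e-09) in double mutants, and Prox1, a transcription factor of spiral ganglion neurons and supporting cells, of -0.83 ± 0.04 (adjusted p = 1.61e-09). Etv4, an ETS factor, rose by 0.72 ± 0.10 (adjusted p = 3.08e-05), from 5.90 ± 0.25 CPM in wild-type to 9.71 ± 0.30 CPM. Mdga1 was at 1314 ± 93.3 CPM in wild-type and 1132 ± 22.8 CPM in double mutants. The median of the 20 was 0.04 in Clrn1-/-, -0.04 in Clrn2-/- and -0.17 in double mutants. Schwann cell genes (14) had medians of 0.13, 0.04 and 0.07, and 12 macrophage genes had medians of 0.54, 0.23 and 0.68, with 7 called higher in double mutants. Supporting cell genes (13) had medians of 0.36, 0.27 and 0.40.

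The genes whose levels followed each marker most closely were sought among 15402 genes whose mean reached 1 CPM, by Pearson correlation of log2 CPM over the 12 libraries. The libraries fall into 4 genotypes of 3, so a high correlation can come from the genotype means alone, and no p is given. Calb2 was most like Extl2 (r = 0.99), which was at 124 ± 5.23, 103 ± 1.50, 115 ± 6.22 and 91.2 ± 2.89 CPM in wild-type, Clrn1-/-, Clrn2-/- and double mutants, and like Tesc and Ndrg4 (both 0.98). Runx1 was most like Map2, a dendritic microtubule protein (r = 0.99), which stood at 575 ± 36.1 CPM in wild-type, 835 ± 13.1 CPM in Clrn1-/-, 639 ± 23.4 CPM in Clrn2-/- and 549 ± 11.9 CPM in double mutants. Map2, which is also in the neuron list, was thus highest in Clrn1-/- as Runx1 was.

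Rxrg was most like Fam20b, Cd24a and Cfap161 (0.98, 0.97 and 0.97), and Pcdh20 most like Adcy3, Clasp2 and Armh4 (0.98, 0.97 and 0.97). Lypd1 was most like Gpr158, Cyfip2 and Adra1d (each 0.97). Prph was most like Exosc3, Zfp637 and Ism1 (0.96, 0.95 and 0.94), and Th most like Cdk15, Inpp5j and Nars (0.95, 0.94 and 0.94). The lists of 3 shared no gene between markers, including markers of 1 subtype. Calb1 was most like Syt13, Pth1r and Xist (0.94, 0.93 and 0.92). Pou4f1 had the lowest likenesses, with Anapc2, Yars2 and Gtf2ird2 (0.90, 0.90 and 0.88).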

How the data were processed

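RNA of 12 organ of Corti samples (4 genotypes, 3 libraries each) was sequenced by the authors as poly-A, strand-specific paired reads of 100 bases. The deposited values are raw counts per gene, which the authors made with STAR on GRCm38.p6 with Gencode M24, not normalized or pooled. The column of reverse-strand counts was used here, which fits the stranded kit. Reads assigned to no gene (13.5% to 15.8%) were left out. Coordinates and exon lengths came from Gencode M21 on the same build, an earlier release. All 9 markers matched 1 gene each.

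Genes were filtered with filterByExpr (minimum count 10), scaled by TMM (factors 0.963 to 1.02) and fitted over all 12 libraries with genotype alone by edgeR 4.0.16 (R 4.3.3), with the quasi-likelihood test. Averaged over genes, the variance between libraries of a genotype was 4.13 to 17.4 times that of counting (common coefficient of variation 6.15%). The average need not hold for each gene with few counts, such as Prph (107 to 357 counts per library). No 2 libraries of a genotype were alike within sampling noise. Alternatives were limma-voom (limma 3.58.1), DESeq2 1.42.0, other filters, scaling and counts, a replicate block, and each library left out. The scripts were tested on simulated data.

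All 9 markers are named. From other lists, up to 4 genes each were named by the change in double mutants or the highest mean. Beside these, Gap43, Otof, Slc26a5, Gfi1, Chrna10, Slc17a8, Pvalb, Dbh, Slc6a2 and Slc18a2 were chosen after their values were seen. The members and lists were chosen with earlier results of these data known.

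The labels number replicates 1 to 3 in each genotype. Deviations from genotype means of same-numbered libraries correlated above 0.1 in 7 of 18 pairs (-0.28 to 0.31). Only wild-type and Clrn1-/- had all 3 pairs above 0.1 (0.29, 0.13 and 0.11).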

Additional observations from a re-analysis of the deposited data

Results flagged for a closer look

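The effects of losing Clrn2 with and without Clrn1 differed for 3 markers, by the interaction term of the edgeR fit. The difference on the log2 scale was -0.61 for Th (adjusted p = 0.0154), -0.37 for Runx1 (adjusted p = 0.000327) and -0.41 for Pcdh20 (adjusted p = 0.0266), and only that of Th passed 1.5-fold. Groups of 3 libraries were too small to be searched for outlying samples.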

How the results depend on the processing

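Under all 22 alternatives, Rxrg in Clrn1-/- and in double mutants against wild-type, Calb2 in double mutants against wild-type, Prph in its 4 calls and Pcdh20 in double mutants against Clrn1-/- kept their direction and call. Without a fold minimum the markers called numbered 3, 5 and 6 against wild-type (Clrn1-/-, Clrn2-/- and double mutants), 7 between the single mutants, 5 in double mutants against Clrn1-/- and 3 for the interaction, by construction. With each library left out in turn, the same counts ran from 1 to 2, 1 to 2 and 3 to 4 against wild-type, 1 to 3 between single mutants, 2 to 3 and 0 to 4 in double mutants against Clrn1-/- and Clrn2-/-, and 0 to 2 for the interaction. With Xist in the fit, chosen after seeing the data, 1 was called between single mutants (Prph) and 0 in double mutants against Clrn2-/-, and the cause was not tested. The call of Calb1 in double mutants against Clrn2-/- was also lost with DESeq2 (0.64), without Clrn2-/- replicate 1 or 3 and without any double mutant library.

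Signs turned only for changes that were not called. With library size alone, Th in Clrn1-/- was at 0.032 and Runx1 in double mutants at 0.0198 against wild-type. With Xist, Th was at 0.10 (Clrn1-/-) and 0.000731 (double mutants) and Runx1 at 0.000448 (double mutants) against wild-type, and Pou4f1 was at 0.0103 between single mutants, -0.000398 in double mutants against Clrn1-/- and 0.0099 against Clrn2-/-. In double mutants against Clrn1-/-, Rxrg was at 0.0036 with limma-voom and Pou4f1 at -0.0013 without a filter. With libraries left out, ranges against wild-type were -0.46 to 0.0116 (Prph) and -0.0796 to 0.0864 (Th) in Clrn1-/- and -0.38 to 0.23 (Calb1) in Clrn2-/-. In double mutants against Clrn1-/- they were -0.10 to 0.0935 (Rxrg), -0.096 to 0.14 (Calb1) and -0.0277 to 0.0329 (Pou4f1). Pou4f1 ranged from -0.0757 to 0.0152 between single mutants and from -0.0804 to 0.0114 in double mutants against Clrn2-/-, and the interaction from -0.15 to 0.0342 (Calb2) and from -0.19 to 0.42 (Calb1).

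With the replicate number as a block, 1, 1 and 3 markers were called against wild-type. The pairing check passed only for wild-type and Clrn1-/-, and the block changed no call there. Elsewhere the libraries shared only a number, and the block added the call of Calb1 between single mutants (0.61) and changed no other.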
